A study of Mus musculus with 6 samples.

Results

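Genes of sterol and fatty acid synthesis were examined in the E13.5 intestinal epithelium of embryos that had lost *Tcf7l1* and of wild type embryos. The 33 genes were taken from a list of symbols and found by symbol among the 23366 genes counted, and 32 of them passed the filter on low counts that left 12501 genes for testing. By role, 17 genes belong to the cholesterol pathway, 6 regulate the pathway or carry sterols, and 10 make fatty acids.

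RNA was sequenced from EpCAM-positive small intestine cells of E13.5 mouse embryos, with 3 libraries of the genotype Shh-cre-egfp:Tcf7l1 lox/lox, called mutant, and 3 of wild type embryos. No treatment was given. Each library came from 500 sorted cells, whose polyA RNA was amplified as cDNA for 15 cycles. In the mutants, Cre is made from the *Shh* locus, which is active in the gut epithelium, and removes a floxed exon of *Tcf7l1*. Neither group is described as carrying Cre with an intact *Tcf7l1*, so an effect of the Cre allele and of the loss of *Tcf7l1* cannot be told apart. The labels do not tie the libraries to litters. In bulk samples such as these, fewer cells of a type and less RNA per cell cannot be told apart.

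Cells build cholesterol from acetyl-CoA through mevalonate, farnesyl diphosphate, squalene and lanosterol. The transcription factors SREBP1 and SREBP2, encoded by *Srebf1* and *Srebf2*, turn the genes of both pathways on when sterols are scarce. SCAP escorts the SREBP precursors from the endoplasmic reticulum to the Golgi for cleavage, and the INSIG proteins hold SCAP back when sterols are plentiful. The same acetyl-CoA, made from citrate by ATP citrate lyase, feeds fatty acid synthesis. Growing embryonic epithelia need both products for new membranes, and in the intestine the epithelium later becomes a major site of lipid handling.

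The total counts lay between 18216537 and 20397278. Counts were scaled by TMM, edgeR's method for making libraries comparable, and normalized counts are given below. *Tcf7l1* itself had normalized counts of 475.3, 472.5 and 363.2 in wild type and 41.33, 32.94 and 72.85 in mutant libraries. The wild type libraries had 0 counts of *Xist* and 4952 to 5293 counts of 4 Y-linked genes, while the mutants had 229 to 424 counts of *Xist* and 0 of those genes, so embryo sex and genotype cannot be told apart. All 7 epithelial markers were tested, with a summed level of 6717 to 7093 CPM in wild type and 6178 to 6377 CPM in mutant libraries. CPM here are counts scaled to library size times its TMM factor. The 7 enterocyte markers summed to 956.3 to 1047 CPM in wild type and 1303 to 1415 CPM in mutant libraries. The 5 liver markers (4 tested) summed to 217.1 to 263.6 and 167.2 to 188.4 CPM, and the 7 mesenchymal markers (3 tested) to 67.25 to 78.76 and 52.52 to 74.64 CPM. The 5 pancreas markers (2 tested) summed to 6.257 to 7.399 and 9.181 to 10.04 CPM, with *Ptf1a* and *Prss1* at 0 counts. The 5 red blood cell markers (1 tested, *Hba-a1* and *Hbb-bh1* at 0) reached at most 1.672 CPM and the 3 endothelial markers (0 tested, *Cdh5* and *Kdr* at 0) at most 1.061 CPM. The part of these marker levels in the results was not tested.

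Mutant epithelium had less RNA of *Scap*, *Srebf2* and *Acly* and slightly more of *Fdps*, while 28 of the 32 tested genes did not pass the test. Genotypes were set against each other by the quasi-likelihood test of edgeR, and a gene passed at an adjusted p under 0.01 by Benjamini-Hochberg adjustment over all tested genes. Of the 32 genes, 1 passed as higher in the mutant, where 7.32% of all tested genes did, and 3 passed as lower, where 7.61% did. A gene was called changed if its log2 fold change was also 0.5 or more in size and its normalized count averaged 50 or more. By that rule 0 members were called higher, against 2.78% of all genes, and 3 lower, against 5.83%. By the same rule DESeq2 called 0 members higher and 4 lower, where it called 410 and 789 of 13202 tested genes. At an unadjusted p under 0.05, edgeR gave 10 members higher, against 18.6% of all tested genes, and 5 lower, against 21.6%. At an adjusted p under 0.05, edgeR gave 4 members higher, against 13.6% of all tested genes, and 5 lower, against 15.1%, so these shares were near those of all genes. By DESeq2, *Pmvk*, *Sc5d*, *Elovl6* and *Scd2* were also higher at an adjusted p under 0.05, while *Acacb*, lower by edgeR, was at 0.062. The share of all genes at that threshold was not computed for DESeq2. The groups did not overlap for 8 members that were higher in every mutant library, against 20.8% of all tested genes, and for 7 that were lower, against 22.2%. The median log2 fold change was 0.10 over the members and -0.04 over all tested genes.

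**Figure D1:**
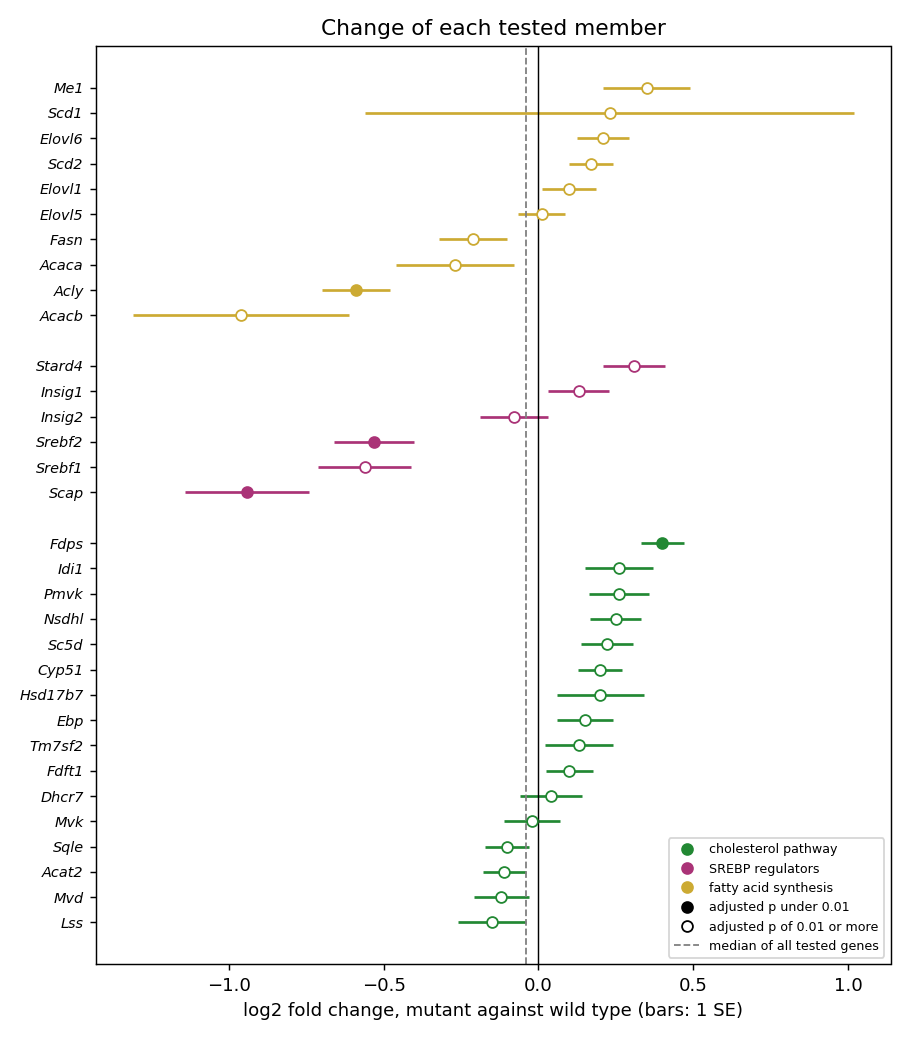
Log2 fold change of each tested member, mutant against wild type, with bars of 1 SE, grouped by role (colours). Filled points are the 4 genes with an adjusted p under 0.01; the dashed line marks the median of all tested genes, -0.04. *Scap* and *Acacb* lie lowest, at -0.94 and -0.96, and *Fdps* highest, at 0.40.

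Among the regulators, *Srebf2* and *Scap* fell. *Srebf2*, which encodes the SREBP best known for driving sterol genes, had normalized counts of 974, 1301 and 899 in wild type libraries 1, 2 and 3 and of 736.6, 747 and 714.1 in mutant libraries 1, 2 and 3. The groups did not overlap, and wild type 2 stood above the other two. The log2 fold change was -0.53 ± 0.13 (SE; 1.44-fold lower), with an adjusted p of 0.0076 by edgeR. *Srebf2* lies at chr15:81977696-82035806, plus strand of the build mm9, and has 19 exons. The call held without wild type 3, at -0.62 with an adjusted p of 0.0023 by edgeR, and was lost without each of the other libraries. Leaving out wild type 1 gave an adjusted p of 0.015 by edgeR, and leaving out mutant 1, 2 and 3 gave 0.028, 0.024 and 0.03. Leaving out wild type 2 gave a change of -0.35 and an adjusted p of 0.057.

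*Scap*, which encodes the escort of the SREBP precursors, had normalized counts of 393, 517.2 and 361.3 in wild type and of 288.2, 192.3 and 179.9 in mutant libraries. Every mutant library lay below every wild type library, with wild type 2 again the highest and mutant 1 the nearest to wild type. It fell by 0.94 on the log2 scale (SE 0.20; 1.92-fold lower), with an adjusted p of 0.0031 by edgeR. *Scap* lies at chr9:110235792-110287450, plus strand (mm9), and 18.9% of its exon bases overlap the gene *5830462I19Rik* on the opposite strand. Whether reads were counted by strand is not stated in the sources used here, so reads of these genes may not be told apart there. Without wild type 2, mutant 2 or mutant 3 the change was -0.78, -0.85 and -0.82, with adjusted p of 0.024, 0.018 and 0.018 by edgeR.

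*Srebf1*, whose products drive fatty acid genes more than sterol genes, had normalized counts of 1014, 1413 and 926.5 in wild type and of 794.5, 656.7 and 828.9 in mutant libraries. The order of the wild type libraries was that of *Srebf2* and *Scap*, and the groups did not overlap. Its log2 fold change of -0.56 ± 0.15 (SE) missed the threshold at an adjusted p of 0.011 by edgeR, and passed it at 0.004 by DESeq2. Without wild type 3 edgeR's adjusted p was 0.0038, with a change of -0.66, and without wild type 2 the change was -0.35.

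The INSIG genes, which encode the proteins that hold SCAP back, differed by less than these genes. *Insig1*, a known target of SREBP2, had normalized counts of 1124, 1262 and 1111 in wild type and 1230, 1247 and 1363 in mutant libraries, so the groups overlapped. Its log2 fold change was 0.13 ± 0.099 (SE), adjusted p = 0.33 by edgeR. *Insig2* had 756, 772.1 and 772.9 in wild type and 721.1, 728.9 and 728.5 in mutant libraries, with a log2 fold change of -0.08 ± 0.11 (SE), adjusted p = 0.63 by edgeR. The *Insig2* groups did not overlap, but the gap between them was small. *Stard4*, which encodes a sterol carrier of the cytosol, had 825.3, 859.5 and 861.1 in wild type and 1001, 1074 and 1077 in mutant libraries. The *Stard4* groups did not overlap, and the change of 0.31 ± 0.10 (SE) had an adjusted p of 0.033 by edgeR, above the threshold. Over the 6 regulators the median log2 fold change was -0.30, with 2 passing as lower and 0 as higher. Of all tested genes, 7.61% passed as lower and 7.32% as higher.

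The start windows of *Srebf2* and *Scap* are shown because these genes fell. Each is 300 bases from RefSeq on build GRCm38.p6, 250 before and 50 after the annotated start, at chr15:82147019-82147318 (plus strand) and chr9:110333038-110333337 (plus strand, the first of 2 windows). Capitals mark CCAAT or its reverse complement ATTGG, bound by the factor NF-Y, in *Srebf2*, and CACGTG, an E-box, in *Scap*.

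*Srebf2*: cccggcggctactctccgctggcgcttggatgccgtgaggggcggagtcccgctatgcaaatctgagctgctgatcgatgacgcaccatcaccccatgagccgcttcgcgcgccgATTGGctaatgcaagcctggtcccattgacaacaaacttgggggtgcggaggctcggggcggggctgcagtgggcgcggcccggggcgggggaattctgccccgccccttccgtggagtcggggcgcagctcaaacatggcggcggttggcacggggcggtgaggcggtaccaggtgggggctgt

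*Scap*: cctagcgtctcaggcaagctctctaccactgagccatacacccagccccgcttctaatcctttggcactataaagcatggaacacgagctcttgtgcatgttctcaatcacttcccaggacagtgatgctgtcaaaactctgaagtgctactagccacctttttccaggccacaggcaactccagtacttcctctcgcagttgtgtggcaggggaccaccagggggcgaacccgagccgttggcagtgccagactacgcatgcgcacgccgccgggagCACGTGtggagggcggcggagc

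Neither window holds TCACNCCAC, the core letters of a sterol regulatory element, on either strand. No match says only that these letters are not in this window.

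**Figure D2:**
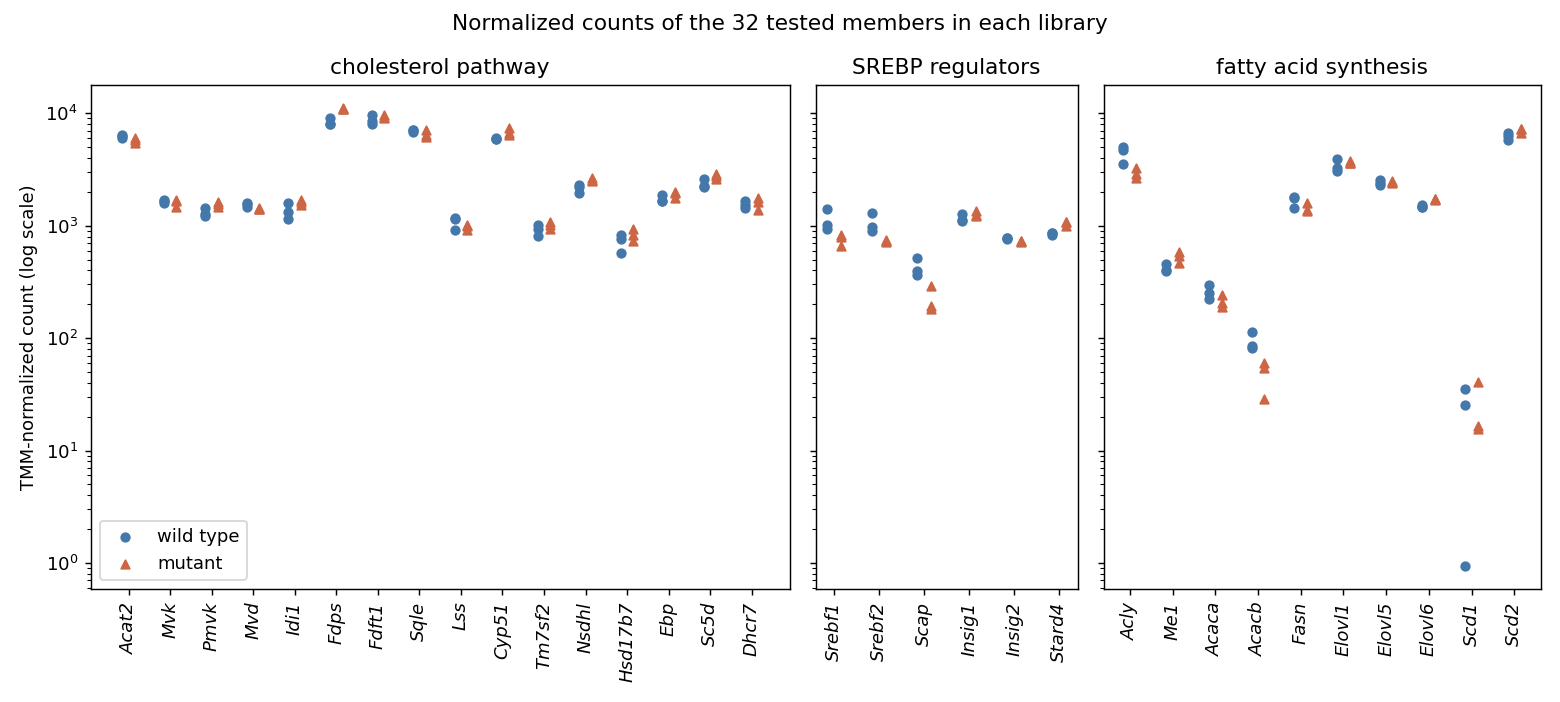
TMM-normalized counts (log scale) of the 32 tested members in the 3 wild type libraries (circles) and the 3 mutant libraries (triangles), by role. *Scap*, *Srebf2*, *Srebf1*, *Acly* and *Acacb* lie lower in all 3 mutant libraries, and *Fdps* lies higher in all 3.

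In the cholesterol pathway, *Fdps* passed the test as higher, as 7.32% of all tested genes did, and 15 of the 16 tested genes did not pass. *Fdps*, which encodes farnesyl diphosphate synthase at the branch between sterols and other isoprenoids, had normalized counts of 8000, 7954 and 9010 in wild type and of 11030, 11180 and 10840 in mutant libraries. The groups did not overlap, and wild type 3 lay nearest to the mutants. The log2 fold change was 0.40 ± 0.069 (SE; 1.32-fold higher), with an adjusted p of 0.00057 by edgeR, under the fold needed for a call. It passed without each library in turn, at 0.37 to 0.48. *Fdps* lies at chr3:88897514-88905881, minus strand (mm9), and the genome holds 4 near-identical copies of its transcript, so reads that match a copy equally well were not counted.

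2 further genes of the cholesterol pathway had an adjusted p under 0.05 but above 0.01. *Cyp51*, the lanosterol demethylase, had normalized counts of 5955, 5932 and 6085 in wild type and 6715, 6468 and 7437 in mutant libraries. Its groups did not overlap, with a log2 fold change of 0.20 ± 0.071 (SE), adjusted p = 0.047 by edgeR. *Nsdhl*, a dehydrogenase that helps strip methyl groups from the sterol ring, had 2224, 1972 and 2298 in wild type and 2562, 2660 and 2522 in mutant libraries. The mutant libraries all lay higher, with a change of 0.25 ± 0.082 (SE), adjusted p = 0.029 by edgeR. With single libraries left out, the adjusted p was 0.0059 without wild type 3 and 0.062 to 0.13 without each of the others. *Nsdhl* and *Ebp*, the sterol isomerase, are on the X chromosome, so their values stand beside the difference in embryo sex. *Ebp* had means of 1723 ± 126 in wild type and 1911 ± 126 in mutant libraries (SD, n = 3), with a log2 fold change of 0.15.

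The first steps, from acetyl-CoA to mevalonate phosphates, had small differences in both directions. *Acat2*, the cytosolic thiolase, had a log2 fold change of -0.11, the kinases *Mvk* and *Pmvk* had -0.02 and 0.26, and the decarboxylase *Mvd* had -0.12. The isomerase *Idi1* had 0.26, the squalene synthase *Fdft1* 0.10, the squalene epoxidase *Sqle* -0.10 and the lanosterol synthase *Lss* -0.15. Among the later enzymes, the reductases *Tm7sf2*, *Hsd17b7* and *Dhcr7* had 0.13, 0.20 and 0.04, and the desaturase *Sc5d* had 0.22. These 12 genes and *Ebp* had adjusted p of 0.054 to 0.90 by edgeR. Of *Fdft1*, 26.9% of the exon bases overlap *Ctsb* on the opposite strand, and of *Tm7sf2* 15.3% overlap *1110014N23Rik* on the same strand. *Acat2*, *Idi1* and *Fdft1* have near-identical copies in the genome, as do *Insig1*, *Me1* and *Acaca*, so their counts leave out the reads that match a copy equally well. Of the 16 tested genes, 11 had a positive change and the median was 0.14. Over all tested genes, 45.7% had a positive change and the median was -0.04.

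*Hmgcs1*, which encodes HMG-CoA synthase, had 0 counts in each of the 6 libraries and was not tested. Over 116992389 counts in all, a count of 0 allows up to 3, but only if reads of the gene could be counted. *Hmgcs1* is not in the GENCODE vM1 annotation of mm9, and its start window matched 1 unplaced contig of that build and 0 assembled chromosomes. Whether this bears on the count of 0 was not tested. Its RefSeq window at chr13:119690101-119690400 (GRCm38.p6, plus strand) is shown because it is the only member window of those matched with the letters TCACNCCAC, in capitals together with CCAAT or ATTGG.

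*Hmgcs1*: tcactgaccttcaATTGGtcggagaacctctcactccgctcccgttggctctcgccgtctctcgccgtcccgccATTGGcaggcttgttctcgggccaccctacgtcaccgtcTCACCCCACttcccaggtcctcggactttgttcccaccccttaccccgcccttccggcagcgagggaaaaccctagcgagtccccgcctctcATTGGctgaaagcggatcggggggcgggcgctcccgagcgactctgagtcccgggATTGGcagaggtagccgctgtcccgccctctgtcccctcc

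RefSeq windows were found for 27 of the 33 members, and for several members there was more than 1 window, 37 in all. TCACNCCAC was in 1 of the 37 windows (2.70%), against 1.24% of 32851 windows of all genes. CCAAT was in 24 of the 37 (64.9%), belonging to 23 members, against 37.4% of all windows, and CACGTG was in 7 (18.9%), belonging to 6 members, against 7.15%. Both strands were searched, and none of the 3 motifs contains another. Windows were not matched for *Fdps*, *Fdft1*, *Sqle*, *Stard4*, *Scd1* and *Scd2*.

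Among the 10 fatty acid genes 9 did not pass, and 7.61% of all tested genes passed as lower. *Acly*, which encodes ATP citrate lyase, was the 1 that fell. Its normalized counts were 4762, 5014 and 3560 in wild type and 2877, 2675 and 3284 in mutant libraries. The groups did not overlap, and wild type 3 and mutant 3 lay closest to each other. It fell by 0.59 on the log2 scale (SE 0.11; 1.51-fold lower), with an adjusted p of 0.0012 by edgeR, and passed without each library in turn, at -0.72 to -0.50. *Acly* lies at chr11:100337667-100389314, minus strand (mm9), with 29 exons. Its RefSeq window at chr11:100527951-100528250 (GRCm38.p6, minus strand) is shown as that of the third gene that fell, with CCAAT in capitals.

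*Acly*: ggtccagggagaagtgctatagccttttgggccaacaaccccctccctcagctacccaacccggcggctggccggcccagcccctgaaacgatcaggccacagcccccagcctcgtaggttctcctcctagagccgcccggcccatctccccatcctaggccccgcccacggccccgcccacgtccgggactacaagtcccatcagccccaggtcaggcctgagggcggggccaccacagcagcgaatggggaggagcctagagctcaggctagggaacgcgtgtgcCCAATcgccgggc

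The acetyl-CoA carboxylases make malonyl-CoA, the building block of fatty acids (*Acaca*) and a brake on their oxidation (*Acacb*). *Acacb* had normalized counts of 113.2, 84.65 and 81.55 in wild type and 28.93, 60.56 and 54.08 in mutant libraries. All mutant libraries lay below wild type, but at these low counts the log2 fold change of -0.96 had an SE of 0.35 and an adjusted p of 0.0497 by edgeR. *Acaca* had means of 256.6 ± 35.7 in wild type and 212.2 ± 25.6 in mutant libraries (SD, n = 3), a change of -0.27 with an adjusted p of 0.29 by edgeR. Per length, *Acaca* made up 64.5, 76.24 and 74.15% of the pair's level in wild type and 86.84, 78.55 and 76.43% in mutant libraries, so the mutant shares lay just above those of wild type.

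*Fasn*, the fatty acid synthase itself, had means of 1668 ± 195 in wild type and 1438 ± 143 in mutant libraries (SD, n = 3), a log2 fold change of -0.21 with an adjusted p of 0.14 by edgeR. *Me1*, a malic enzyme that supplies NADPH, had 416.1 ± 33.7 and 530.2 ± 57, with a change of 0.35 and an adjusted p of 0.076 by edgeR. Its groups did not overlap. The elongases *Elovl1*, *Elovl5* and *Elovl6* had log2 fold changes of 0.10, 0.01 and 0.21, and only the *Elovl6* groups did not overlap among these 3. Of the stearoyl-CoA desaturases, which put the first double bond into fatty acids, *Scd2* made up 99.37 to 99.98% of the pair's level per length in the 6 libraries. *Scd2* had a log2 fold change of 0.17, adjusted p = 0.086 by edgeR, and *Scd1* had 0.9357 to 40.38 normalized counts and an SE of 0.79. The median over the 10 fatty acid genes was 0.05 and turned to -0.05 with library size as the only scaling.

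Per length, the levels of the members spanned a wide range in wild type. *Fdps* was highest, at 347 ± 24.9 RPKM, reads per kilobase of the longest transcript scaled to library size times its TMM factor (SD, n = 3). *Fdft1* at 156 ± 15.4 and *Acat2* at 142 ± 5.46 followed, and did not differ from each other beyond their spread. *Acly* had 51.6 ± 9.01, *Srebf1* 13.4 ± 3.1, *Srebf2* 10.9 ± 2.2 and *Scap* 5.15 ± 1 on this scale, and *Acacb* and *Scd1* were lowest at 0.544 ± 0.102 and 0.219 ± 0.188. The changes of the regulators were on genes of lower level per length than most of the enzymes. *Srebf2* made up 45.02 ± 0.683% of the *Srebf1* and *Srebf2* pair in wild type and 45.51 ± 3.57% in mutant libraries (SD, n = 3), so their proportion differed by less than the spread. *Insig1* made up 60.23, 62.49 and 59.44% of the INSIG pair in wild type and 63.48, 63.55 and 65.6% in mutant libraries, which did not overlap.

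Summed over its genes, the cholesterol pathway had 2647, 2612 and 2841 CPM in wild type and 2916, 2894 and 3023 CPM in mutant libraries. On this TMM scale the mutants all lay higher, with wild type 3 close below them. The means were 2700 ± 123 and 2944 ± 68.8 CPM (SD, n = 3). With library size as the only scaling, the pathway's median log2 fold change moved from 0.14 to 0.04. The sums were not computed with that scaling, so whether the groups stay apart there is not known. The regulators summed to 276.3 ± 33.3 CPM in wild type and 244.9 ± 6.3 CPM in mutant libraries, and the fatty acid genes to 1052 ± 39.4 and 1030 ± 26.1 CPM. The regulators' sums did not overlap, while those of the fatty acid genes did. The regulators' gap was narrow, with wild type 3 at 253.3 and mutant 3 at 251.2 CPM, and wild type 2 was highest at 314.5 CPM. The largest terms of the cholesterol sum were *Fdft1* and *Fdps*. *Fdps* had the largest rise among its genes, from a mean of 8321 normalized counts in wild type to 11020 in mutant libraries. *Fdft1* went from 8699 to 9298. Cholesterol sums without *Fdps* were not computed, so the higher sums do not show a rise across the pathway.

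**Figure D3:**
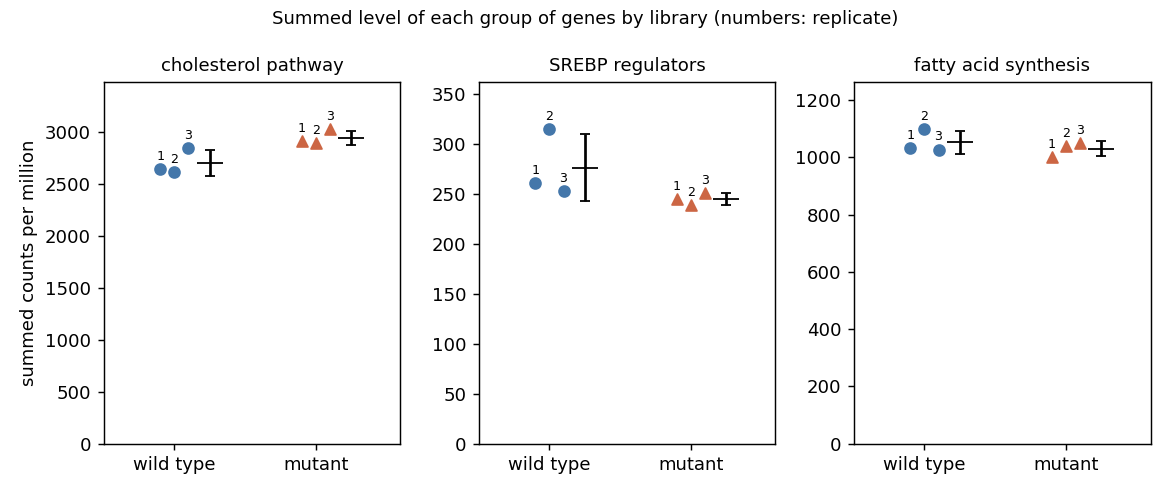
Summed CPM (TMM-scaled) of each group of genes in each library (numbers: replicate). The mean and SD of the 3 libraries stand beside the points, and axes start at 0. The cholesterol pathway sum lies higher in all 3 mutant libraries (2894 to 3023 CPM) than in wild type (2612 to 2841 CPM). *Fdps* has the largest rise among its genes, and sums without it were not computed. The sums of the fatty acid genes overlap.

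Wild type 3 lay nearest to the mutant mean for 23 of the 32 tested members (71.9%), where it did so for 49.9% of all tested genes. Without wild type 3, 5 members passed as higher and 4 as lower, while 1587 and 1149 of 12776 tested genes did. Without wild type 2, 1 member passed in each direction and 0 were called. Of all 12716 genes tested then, 460 passed as higher and 500 as lower. Without mutant 2, and likewise without mutant 3, 1 member passed in each direction and 1 was called. Over all genes, 445 and 541 then passed without mutant 2, and 504 and 619 without mutant 3. In the fit of all libraries, 915 and 951 of 12501 genes passed.

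Fold changes also moved with transcript length. Across the 11772 tested genes with an annotated length, Spearman's rho between log2 fold change and length was -0.25, and over the 32 tested members it was -0.35. Points share the same 6 libraries. In 5 equal groups of genes from the shortest to the longest, the median log2 fold changes were 0.17, 0.01, -0.10, -0.19 and -0.14. The transcript of *Fdps* has 1233 bases, while those of *Scap*, *Acly* and *Srebf2* have 4223, 4426 and 4989 bases. After a correction for length, 4 members passed as higher, *Fdps* at 0.21, *Cyp51* at 0.31, *Stard4* at 0.42 and *Scd2* at 0.27, and 1 as lower, *Acly* at -0.47 with an adjusted p of 0.0056 by edgeR. *Srebf2* was then at -0.41 and *Scap* at -0.82, with adjusted p of 0.026 and 0.011 by edgeR.

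**Figure D4:**
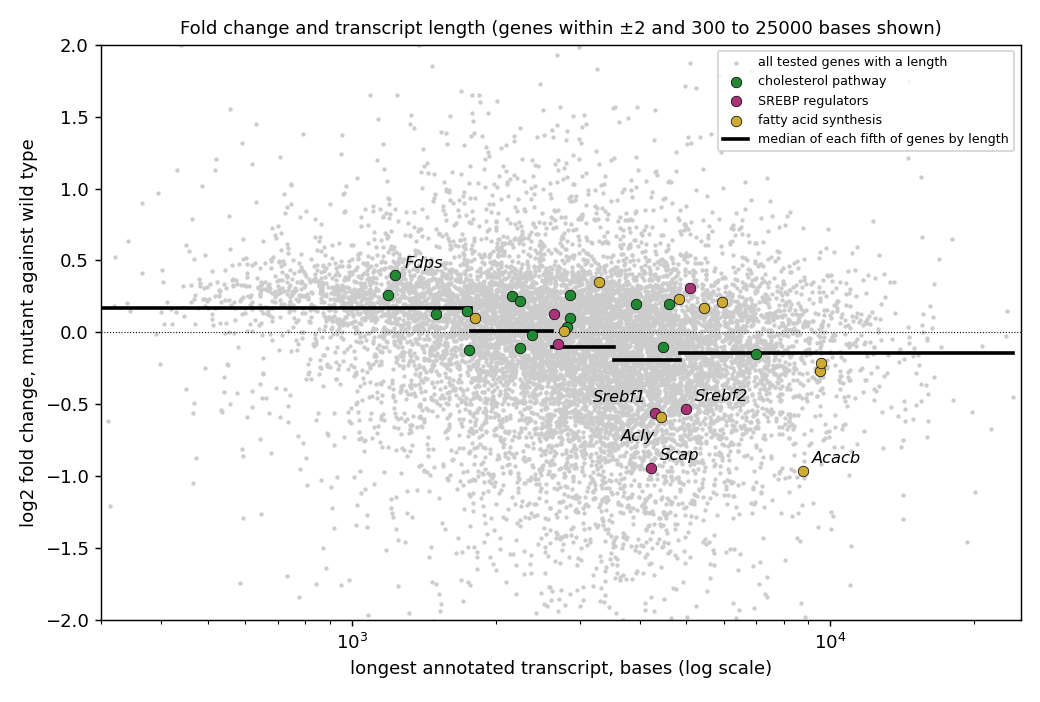
Log2 fold change, mutant against wild type, by the length of the longest annotated transcript (bases, log scale) for all tested genes (grey) and the members (coloured by role), with the median of each of 5 length groups as black bars. The medians run from 0.17 among the shortest genes to -0.14 among the longest; *Fdps* lies among short genes and *Scap*, *Acly*, *Srebf1*, *Srebf2* and *Acacb* among long ones.

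Beside the members, 47 related genes were counted, of which 41 were tested, with a median log2 fold change of -0.05. Of the 41, 5 passed as higher, against 7.32% of all tested genes, and 5 as lower, against 7.61%. Of these, 1 was called higher, against 2.78% of all tested genes, and 3 lower, against 5.83%. *Acat1*, the mitochondrial thiolase, had normalized counts of 6429, 6604 and 6565 in wild type and 9940, 10130 and 10150 in mutant libraries. The groups lay far apart, with a log2 fold change of 0.63 ± 0.063 (SE) and an adjusted p of 3.8e-06 by edgeR, and it passed without each library in turn, at 0.61 to 0.64.

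The 3 called lower were *Ggps1*, which makes geranylgeranyl diphosphate from the product of FDPS, *Mid1ip1*, which promotes the activity of acetyl-CoA carboxylase, and the elongase *Elovl7*. *Ggps1* fell by 0.55 on the log2 scale, *Mid1ip1* by 0.57 and *Elovl7* by 0.50, with adjusted p of 0.0023, 0.0039 and 0.0054 by edgeR. The call of *Elovl7* was lost with RLE normalization and with DESeq2, both at -0.48, and after the correction for length, at -0.41 with an adjusted p of 0.045 by edgeR. The groups of these 3 genes did not overlap, at 987.7 ± 45.3 and 672.3 ± 65.7 for *Ggps1*, 997.9 ± 49.9 and 670 ± 112 for *Mid1ip1* and 1831 ± 271 and 1291 ± 169 for *Elovl7*. Leaving out single libraries, *Ggps1* passed in 3 of 6 fits and *Mid1ip1* and *Elovl7* in 2 of 6 each, at changes of -0.64 to -0.51, -0.67 to -0.44 and -0.61 to -0.38. Of the 6 genes of SREBP processing, 1 passed as lower, where 7.61% of all tested genes did. It was *Mbtps1*, which encodes the first protease that cleaves SREBP, with a change of -0.48 and an adjusted p of 0.0015 by edgeR. *Mbtps1* was under the fold needed for a call and was named after its values were seen.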

How the data were processed

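RNA-sequencing libraries of sorted epithelium, 3 mutant and 3 wild type, were grouped by the genotype in the labels. Per the labels and the study's methods, cDNA was made with the SMARTer kit, reads were mapped with STAR 2.5.2b to mm9 and uniquely mapping reads were counted per gene with featureCounts 1.5.1 on a UCSC gene model. The authors deposited these raw counts per gene without normalization, in a table for each library, and compared groups with DESeq2 1.18.1. The strand setting is not given in the sources used here. Replicates are described as biological, but nothing ties them to separate embryos or litters, so p-values measure the spread between these libraries. PCR copies were not marked by molecular identifiers.

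Total counts were 18216537 to 20397278, with TMM factors of 0.9574 to 1.059. Counts of 12501 genes that passed filterByExpr were tested with edgeR 4.0.16 (R 4.3.3), TMM normalization and a quasi-likelihood test with genotype as its only term. P-values were adjusted by Benjamini-Hochberg over these genes. Between libraries of a group, the chi-square of the counts was 6.3 to 17.9 per gene, and between groups 27.9 to 54.2. Alternatives were DESeq2 1.42.0, RLE normalization, scaling by library size alone, no filter or one at a mean of 50 counts, a loess correction for transcript length (span 0.5), a replicate block, other thresholds and each library left out in turn.

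Positions, lengths and exon overlaps came from GENCODE vM1 on mm9, and near-identical copies (95% identity or more over 50% or more of the transcript) from minimap2 2.31. Start windows came from RefSeq on GRCm38.p6. The tests were tried on simulated counts. The members, the related genes, the markers and the rule for naming genes were chosen with earlier results of these data known: all members are named, with each library's value at an adjusted p under 0.05 and for *Srebf1*, *Srebf2*, *Insig1* and *Insig2*, and the related genes that were called. Some genes of the related list are not reported here, and its counts leave them out. The study's other assays and adult tissue were not used here. Figures were drawn with matplotlib 3.10.9.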

Additional observations from a re-analysis of the deposited data

How the results depend on the processing

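The count of members passing as higher was 1, and was 4 with the length correction, 4 at an adjusted p under 0.05 and 1 to 5 with single libraries left out. The count passing as lower was 3, and was 1 with the length correction, 5 at an adjusted p under 0.05 and 1 to 4 with single libraries left out (1 without wild type 2, mutant 2 or mutant 3). The count called lower was 3, and was 0 with the length correction, 0 when the log2 fold change had to reach 1 in size, and 0 to 4 with single libraries left out. The count called higher was 0 under each alternative run. The cause of these shifts was not tested. For 11 members alternatives were followed, and 0 of 77 values from other settings and 0 of 66 with a library left out changed direction. All but *Insig1* and *Insig2* were under an adjusted p of 0.05 by edgeR in the same data, which favours a steady direction. Only the 4 that passed could stop passing, and 2 and 8 of their values did. With a library left out, *Fdps* and *Acly* passed in 6 of 6 fits, *Scap* in 3 and *Srebf2* in 1. Some members not followed did change direction, such as *Sqle* (-0.10 to 0.02) and *Tm7sf2* (0.13 to -0.02) with the length correction. *Srebf1* passed with DESeq2, when scaled by library size alone, with no filter and with the filter at a mean count of 50. Library size as the only scaling moved the median of all genes from -0.04 to -0.15, the share of called genes that were higher from 32.3% to 17.3% and the median of the members from 0.10 to -0.01. Over all genes, 915 passed as higher, and 491 did with that scaling, 414 to 1587 with single libraries left out. As lower, 951 passed, and 486 to 1149 did with single libraries left out. With the replicate block, 1 member passed as higher and 3 as lower, all 3 called, and *Srebf2* was at -0.51 with an adjusted p of 0.0091 by edgeR, so no call of a member changed. Same-numbered libraries did not deviate together, with correlations of 0.01, -0.04 and -0.02, so the counts show no pairing by number. These values cannot tell whether same-numbered libraries share a litter or a preparation. *Scd1* and *Acacb* had the lowest counts of the tested members and the largest SEs, 0.79 and 0.35. What made these SEs large was not tested.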

Other observations

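Other genes from the list of related genes also passed the test without reaching the fold needed for a call. *Sc4mol*, the sterol methyl oxidase that acts with NSDHL, had normalized counts of 8151, 8052 and 10370 in wild type and 10410, 12710 and 12360 in mutant libraries, a log2 fold change of 0.42 with an adjusted p of 0.005 by edgeR. Its groups did not overlap, with wild type 3 just below mutant 1. *Slc25a1*, the carrier that brings citrate out of mitochondria to ATP citrate lyase, was at 0.37, and the malic enzyme *Me2* at 0.46. *Dgat1*, which makes triglycerides, was at 0.48, and the desaturase *Fads1* at -0.38. These genes were named after their values were seen.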
